A study of Homo sapiens with 12 samples.

Results

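Glucose is split into pyruvate by glycolysis, and pyruvate then either becomes lactate and leaves the cell or enters mitochondria through the pyruvate dehydrogenase complex. The genes described here encode these steps and the gate between them: 31 genes, listed by symbol from their known roles, for glucose and lactate transporters, the glycolytic enzymes, lactate dehydrogenase, pyruvate dehydrogenase and its kinases, and TXNIP, an arrestin-fold protein that restrains glucose uptake. All 31 were among the 56832 gene symbols counted. Of these, 30 were tested, and SLC2A3 was not, since it held 0 to 6 counts in a library.

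RNA was sequenced from SW1736, an established line derived from an anaplastic thyroid cancer, an aggressive tumour that has lost thyroid differentiation. The cells carried either an empty vector (EV) or a pCDH vector for thyroid hormone receptor beta (TRB), which the labels call stable. All groups were first kept for 24 h without hormone, in medium with charcoal-stripped serum, and then for 24 h with 10 nM triiodothyronine (T3, the active thyroid hormone) or its sodium hydroxide vehicle. The 4 combinations (EV with vehicle, EV with T3, TRB with vehicle, TRB with T3) have 3 libraries each. Whether a vector line was 1 clone, and whether replicates were separate cultures, is not given in the sources used here, so p-values measure the spread between these libraries, which may be technical.

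Glycolytic flux is set largely at a few steps. Hexokinases trap glucose, phosphofructokinase commits it, and the PFKFB enzymes make and remove fructose 2,6-bisphosphate, the strongest activator of phosphofructokinase. Pyruvate dehydrogenase kinases close the mitochondrial gate by phosphorylating the complex, and lactate dehydrogenase with the monocarboxylate transporters disposes of the pyruvate that stays outside. Many tumours run this route toward lactate even with oxygen, and many of its genes are known targets of hypoxia-inducible factor 1.

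Counts within genes totalled 3819306 to 13086717 per library, and 17833 to 22881 symbols had a count. THRB stood at 12.35 to 18.28 CPM (counts scaled to a common normalized library size) in the 6 EV libraries, at 79.79 to 80.41 CPM in TRB with vehicle and at 321.9, 190.3 and 296.7 CPM in TRB with T3. The transcript of the receptor thus rose with T3 in TRB cells (1.75 on the log2 scale, SE 0.2223, adjusted p 0.000434 in edgeR with 12 libraries, and adjusted p 2.1e-07 with 11), so its level differed between the arms compared; its part in the results was not tested. KLF9, a known target of T3, lay at 7.928 to 14.55 CPM in the 6 vehicle libraries and 104.4 to 257.2 CPM in the 6 T3 libraries. Epithelial markers were high (KRT8 386.0 to 2208 CPM, EPCAM 317.1 to 1100 CPM), while the thyroid markers PAX8, NKX2-1, FOXE1 and TG reached at most 6.979 CPM and the mesenchymal marker VIM 1.511 CPM. FN1, the other mesenchymal marker, lay at 9.149 to 16.51 CPM in the vehicle libraries and 66.21 to 303.1 CPM in the T3 libraries. Leukocyte, endothelial and erythroid markers reached at most 1.012 CPM, as did the fibroblast markers COL1A2 and DCN, while the fibroblast marker COL1A1 ran from 1.439 to 33.16 CPM. These levels were not compared with other data on SW1736, so the identity of the line rests on the labels. The part of these markers in the results was not tested. In bulk RNA, fewer cells of a type and less RNA per cell cannot be told apart.

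TRB with T3 replicate 2 stood apart, so counts of calls and the changes of the members described are given for all 12 libraries and for the 11 without it. Its difference from replicates 1 and 3 followed the GC content of genes (Spearman -0.91 over the 30 members and -0.90 over 12130 genes, as a description). In log2 CPM the difference was -4.47 for SLC16A3, with transcripts of 65.6% GC, -4.17 for PFKL (64.0% GC) and 1.35 for PDK4 (39.6% GC). The members' median GC content was 54.1%, against 49.2% over all genes with a value. The members took 0.518% of the counts in this library and 0.82% to 1.16% in the other 11. Libraries kept in the fit of 11 also departed from the rest of their group along GC content. Over the 12130 genes the Spearman values were -0.83 for EV with T3 replicate 2 and 0.80 for its replicate 3. EV with vehicle replicate 2 gave -0.66 (as a description), so leaving out TRB with T3 replicate 2 does not remove such trends. The part of GC content in a result was not tested beyond fits with offsets that remove a smooth GC trend from each library. Counts are uncertain where exons overlap those of another gene (SLC16A3 with CSNK1D on the other strand, PGK1 with ATP7A and LDHB with AC010197.2 on the same strand) or where many pseudogenes exist (62 for GAPDH, 13 for PGAM1, 6 for LDHA and 5 for PKM).

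**Figure D1:**
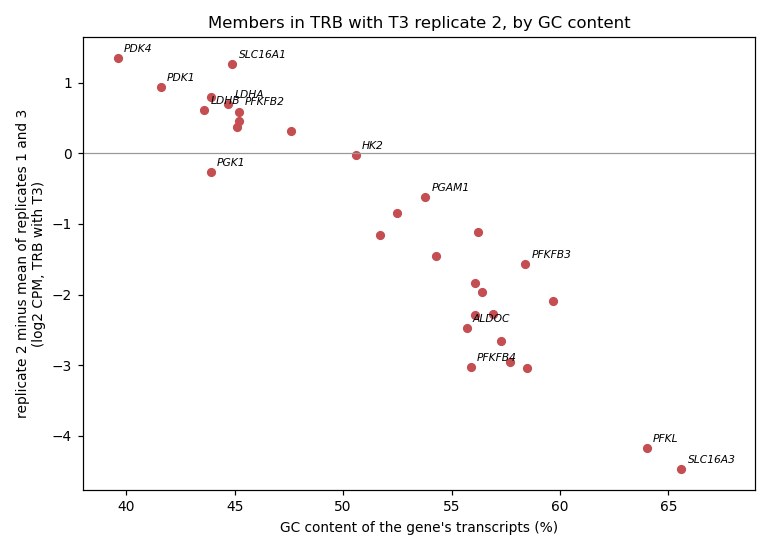
Each point is 1 of the 30 members tested, with the GC content of its transcripts (%) on the x axis and TRB with T3 replicate 2 minus the mean of replicates 1 and 3 (log2 CPM) on the y axis. Members of high GC content such as SLC16A3 and PFKL lie far below the line at 0, and members of low GC content such as PDK4 and PDK1 lie above it.

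The promoter of PFKFB3 is shown because this gene had the largest change among the members in the fit of all libraries and kept its call for T3 in TRB cells under each alternative tried. The 250 bases before its RefSeq start (GRCh38.p14, chr10:6144671-6144920, plus strand) overlap no annotated exon on that strand. Capitals mark CACGC, the reverse strand of GCGTG, a core that hypoxia-inducible factors can bind.

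PFKFB3: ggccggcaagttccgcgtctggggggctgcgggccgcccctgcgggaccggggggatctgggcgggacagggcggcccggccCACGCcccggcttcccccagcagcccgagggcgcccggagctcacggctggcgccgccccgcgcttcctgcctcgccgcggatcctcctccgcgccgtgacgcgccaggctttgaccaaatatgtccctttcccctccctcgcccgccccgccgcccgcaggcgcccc

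The 250 bases before the RefSeq start were searched on both strands, whether or not they overlapped annotated exons. The ALDOC window overlaps an annotated exon on its strand from its first base. The motifs were ACGTG and GCGTG (cores of hypoxia-inducible factor sites), CACGTG (the E box, which contains ACGTG) and AGGTCA (the hexamer that thyroid hormone receptors bind). RefSeq gave a window for 28 of the 31 members, and SLC2A3, PFKFB2 and SLC16A1 had none. ACGTG or GCGTG was found in 16 of the 28 (57.1%), against 43.1% of 27305 promoters of the same length. CACGTG was found in 4 of 28 (14.3%, against 6.5%), in ALDOC, GAPDH, LDHA and PDHB. AGGTCA was found in 2 of 28 (7.1%, against 12.1%), in HK1 and ALDOC. These matches are a description of letters in the window and do not show a bound site.

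The first comparison asked what T3 does to these genes when the receptor is supplied. In TRB cells 8 members rose with T3 in the fit of all 12 libraries and 0 fell. A gene here is said to rise or fall where edgeR's quasi-likelihood test gave a Benjamini-Hochberg adjusted p under 0.05 over all genes tested. The 8 were 3 fructose 2,6-bisphosphate enzymes (PFKFB2, PFKFB3, PFKFB4), ALDOC, PGK1, PGAM1, LDHA and PDK1. Of all 14431 genes tested, 8.54% rose and 6.2% fell. In the fit of 11 libraries 15 members rose and 6 fell, where 18.1% and 15.2% of 14825 genes did. The median log2 change over the 30 members was 0.06 with 12 libraries (0.01 over all genes) and 0.42 with 11 (-0.01 over all genes). With GC offsets on all 12 libraries 13 members rose and 8 fell, where 44.6% of all genes were called in either direction. Across 12130 genes the T3 difference in TRB cells followed GC content (Spearman -0.60 with all libraries and 0.00 without replicate 2, as a description).

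The glucose transporter gene SLC2A1 was lower with T3. SLC2A1 encodes GLUT1, the main glucose transporter of most tumour cells. Its level was 674.3, 708.9 and 672.3 CPM in TRB with vehicle and 373.6, 83.29 and 438.8 CPM in TRB with T3, replicates 1 to 3 in order, so all 3 T3 libraries lay below all vehicle libraries. The log2 change was -1.20 (SE 0.4509, adjusted p 0.104) and did not pass with 12 libraries. With 11 it fell by 0.71 on the log2 scale (SE 0.1441, adjusted p 0.00221). GLUT3, encoded by SLC2A3, had 6 counts in TRB with T3 replicate 2, 1 count in TRB with vehicle replicate 2 and 0 in each other library.

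Both hexokinases rose in the fit of 11 libraries and not in that of 12. HK2, the inducible form, was at 77.47 to 80.99 CPM in TRB with vehicle and at 104.7, 106.0 and 112.0 CPM with T3, without overlap. Its log2 change was 0.43 with 12 libraries (adjusted p 0.0755) and 0.49 with 11 (SE 0.1116, adjusted p 0.00447). HK1, the form found in most tissues, changed by 0.16 (adjusted p 0.618) and by 0.44 (SE 0.1052, adjusted p 0.00599). Replicate 2 held 75.73 CPM of HK1, below the 3 vehicle libraries (98.28 to 113.7 CPM), and replicates 1 and 3 held 134.6 and 137.3 CPM, above them. With GC offsets on 12 libraries both passed (HK1 0.31, adjusted p 0.0064, and HK2 0.52, adjusted p 0.00198). The log2 ratio of HK2 to HK1 counts was -0.50 to -0.28 in TRB with vehicle and -0.36, 0.48 and -0.29 in TRB with T3.

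Of the phosphofructokinase subunits, PFKP rose and PFKM fell in the fit of 11 libraries. The platelet-type subunit PFKP stood at 144.3 to 154.7 CPM with vehicle and at 206.8, 27.88 and 229.6 CPM with T3. It rose with 11 libraries (0.59, SE 0.1311, adjusted p 0.00372) and changed by 0.05 with 12 (adjusted p 0.954). The muscle-type subunit PFKM went the other way, from 111.5 to 125.5 CPM to 80.23, 34.9 and 76.82 CPM, with all T3 libraries below all vehicle libraries. It fell by 0.53 with 11 libraries (SE 0.1252, adjusted p 0.0057), and its change of -0.87 did not pass with 12 (adjusted p 0.0577). The liver-type subunit PFKL passed in neither fit (-0.31 and 0.29, adjusted p 0.782 and 0.268).

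The 3 PFKFB genes among the members all rose in both fits, and PFKFB3 and PFKFB4 had the largest changes of the members. PFKFB1 was not a member and held 0 to 16 counts in a library. PFKFB3 (chr10:6144934-6254644, plus strand, GRCh38) encodes the form whose kinase activity far outweighs its phosphatase activity. The level was 41.57, 44.2 and 40.71 CPM in TRB libraries with vehicle and 310.4, 107.4 and 330.3 CPM with T3. Every T3 library was above every vehicle library, replicate 2 included. The log2 change was 2.56 (SE 0.3524, adjusted p 0.000717) with 12 libraries and 2.97 (SE 0.1193, adjusted p 2.68e-09) with 11, a 7.851-fold rise.

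PFKFB4 (chr3:48517684-48562015, minus strand) encodes another form, and was a gene of low count. It stood at 2.134, 2.499 and 2.266 CPM with vehicle and at 17.56, 1.979 and 17.99 CPM with T3, so that replicate 2 lay below the vehicle libraries. The rise was 2.46 with 12 libraries (SE 0.6085, adjusted p 0.0208) and 2.99 with 11 (SE 0.2139, adjusted p 4.08e-07). With 12 libraries the call was lost without TRB with T3 replicate 1 or 3 (adjusted p 0.0565 and 0.0505) and without TRB with vehicle replicate 1, 2 or 3 (adjusted p 0.0864, 0.0754 and 0.0843). PFKFB2 (chr1:207034366-207081024, plus strand), known as the heart form, went from 26.93, 27.14 and 28.54 CPM to 52.23, 78.97 and 52.34 CPM without overlap. It rose by 1.15 (SE 0.21, adjusted p 0.0041) and by 0.97 with 11 libraries (SE 0.1317, adjusted p 0.000102). Summed over the 3 genes, the level was 70.64 to 73.84 CPM in TRB with vehicle and 380.2, 188.3 and 400.6 CPM with T3. The log2 ratio of PFKFB3 to PFKFB4 counts was 4.14 to 4.28 in TRB with vehicle and 4.14, 5.76 and 4.20 with T3.

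**Figure D2:**
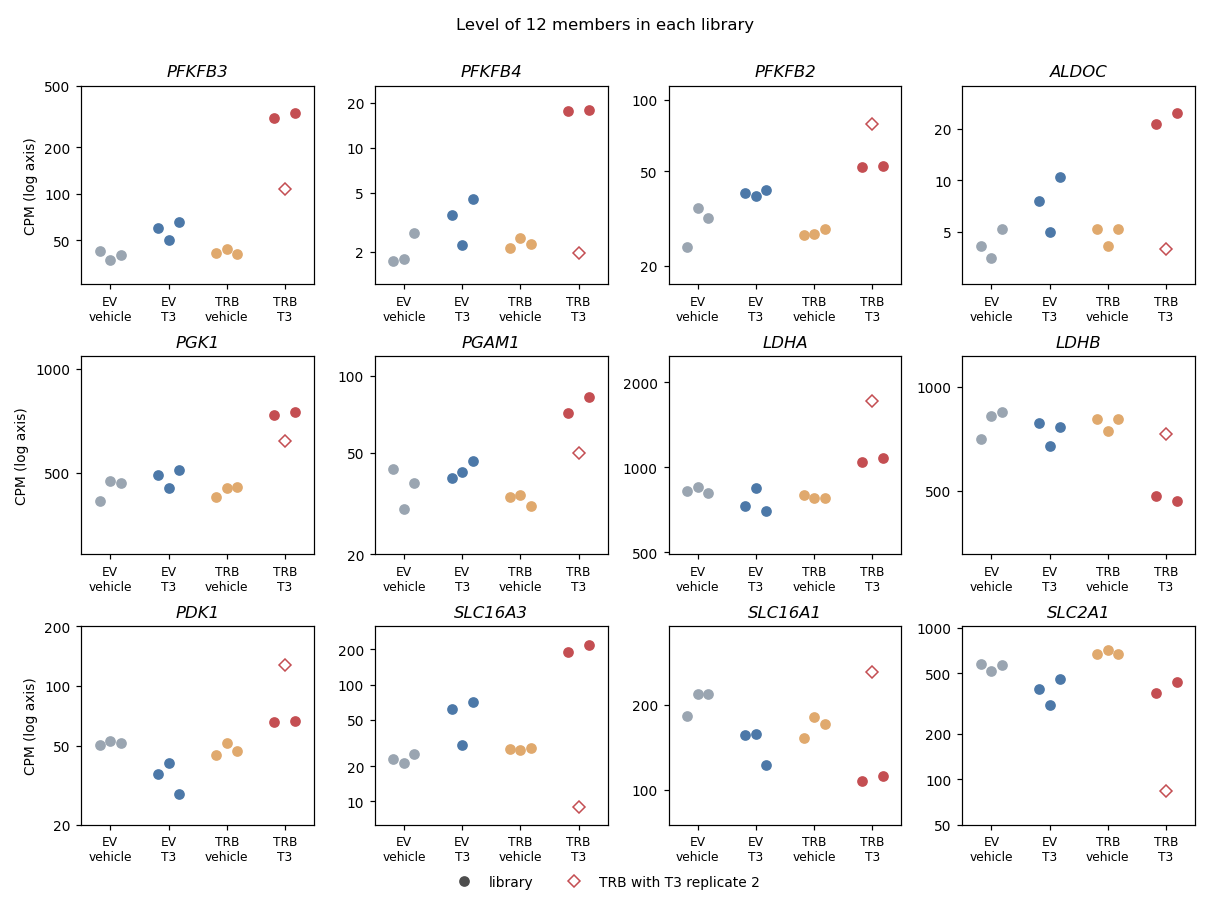
Each panel shows 1 member, with CPM on a log axis and the 3 libraries of each group as points; the open diamond is TRB with T3 replicate 2. PFKFB3 lies at 107.4 to 330.3 CPM in the TRB libraries with T3 and at 37.27 to 66.06 CPM in the other 9, while LDHB and SLC16A3 show replicate 2 apart from replicates 1 and 3.

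The aldolases differed in level and in call. ALDOC (chr17:28573115-28577264, minus strand) encodes the form best known from brain. It held 5.184, 4.136 and 5.204 CPM with vehicle and 21.39, 3.958 and 24.73 CPM with T3. Replicates 1 and 3 were above all vehicle libraries and replicate 2 below them. ALDOC rose by 1.80 with 12 libraries (SE 0.5264, adjusted p 0.0435) and by 2.29 with 11 (SE 0.224, adjusted p 6.03e-06). With 12 libraries the call was lost without any 1 of the other 11 (adjusted p 0.0523 to 0.148), and it held in the fit of 11.

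ALDOA, the form of muscle and most cells, rose with 11 libraries (1.30, SE 0.3507, adjusted p 0.0126) and not with 12 (0.84, adjusted p 0.311). Its counts of 31 to 310 are uncertain, since it shares exons with AC093512.2 on the same strand. The isomerases GPI and TPI1, which interconvert hexose and triose phosphates, passed in neither fit. Their log2 changes were -0.12 and -0.09 with 12 libraries (adjusted p 0.856 and 0.908) and 0.34 and 0.41 with 11 (adjusted p 0.0553 and 0.0533).

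In the lower part of the pathway PGK1 and PGAM1 rose in both fits. PGK1 (chrX:77910739-78129296, plus strand) encodes phosphoglycerate kinase, the first step that yields ATP. Its level was 424.1, 451.8 and 454.2 CPM with vehicle and 735.1, 617.9 and 752.0 CPM with T3, without overlap. The rise was 0.66 with 12 libraries (SE 0.1397, adjusted p 0.00929) and 0.79 with 11 (SE 0.09358, adjusted p 3.16e-05), and it did not pass with GC offsets on 12 libraries (0.45, adjusted p 0.137). PGAM1, phosphoglycerate mutase, went from 33.44, 34.21 and 31.05 CPM to 71.37, 50.01 and 82.57 CPM, a rise of 1.05 (SE 0.2128, adjusted p 0.00752) and of 1.27 with 11 libraries (SE 0.146, adjusted p 2.49e-05). All PGAM1 libraries with T3 lay above those with vehicle.

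Of the abundant glycolytic enzymes, GAPDH and ENO1 passed in neither fit, and PKM rose with 11 libraries and not with 12. Per kilobase of exon, GAPDH (824.1 CPM per kb), ENO1 (561.0) and LDHB (496.5) had the highest mean levels of the members in TRB with vehicle. GAPDH went from 1767 to 1920 CPM to 2042, 329.6 and 2100 CPM, and passed in neither fit (-0.30 and 0.22, adjusted p 0.696 and 0.193). Enolase 1 stood at 1317 to 1409 CPM with vehicle and at 1090, 403.0 and 1135 CPM with T3. Every T3 library of ENO1 was lower, but neither fit passed (-0.62 and -0.23, adjusted p 0.218 and 0.214). ENO2, the neuronal form, rose with 11 libraries by 0.47 (adjusted p 0.00836) and not with 12 (0.03, adjusted p 0.97). PKM, the last step of glycolysis, held 1020 to 1105 CPM with vehicle and 1809, 856.5 and 1926 CPM with T3, and rose with 11 libraries by 0.86 (SE 0.1126, adjusted p 7.47e-05) and not with 12 (0.53, adjusted p 0.2).

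Of the lactate dehydrogenase genes, LDHA rose in both fits and LDHB fell in the fit of 11 libraries. The enzyme is a tetramer of A subunits, which favour the formation of lactate, and B subunits, which favour its use. LDHA (chr11:18394388-18408425, plus strand) stood at 798.6, 777.0 and 779.2 CPM in TRB with vehicle and at 1047, 1714 and 1079 CPM with T3, all above. LDHB (chr12:21635342-21757857, minus strand) went from 808.7, 744.6 and 808.8 CPM to 483.5, 728.4 and 467.8 CPM, all below. LDHA rose by 0.71 with 12 libraries (SE 0.1953, adjusted p 0.0344) and 0.49 with 11 (SE 0.1044, adjusted p 0.00316). LDHB fell by 0.68 with 11 (SE 0.1067, adjusted p 0.000341) and did not pass with 12 (-0.49, adjusted p 0.11). The LDHA call with 12 libraries was lost without TRB with vehicle replicate 1, 2 or 3 (adjusted p 0.0778, 0.0906 and 0.0915). Without the filter on low counts LDHA (adjusted p 0.105), PGK1 (adjusted p 0.106) and PDK1 (adjusted p 0.114) did not pass.

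The ratio of the 2 genes within a library needs no scaling between libraries, and their GC content is alike (44.7% and 43.6%). The log2 ratio of LDHA to LDHB counts was 1.11, 1.23 and 1.21 in TRB with T3, replicate 2 included. It was -0.05 to 0.06 in TRB with vehicle, -0.06 to 0.22 in EV with vehicle and -0.13 to 0.33 in EV with T3. All 3 libraries of TRB with T3 thus stood apart from the other 9. Per kilobase of exon the ratio was 0.21 to 0.33 in TRB with T3 and -1.03 to -0.58 in the other 9.

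**Figure D3:**
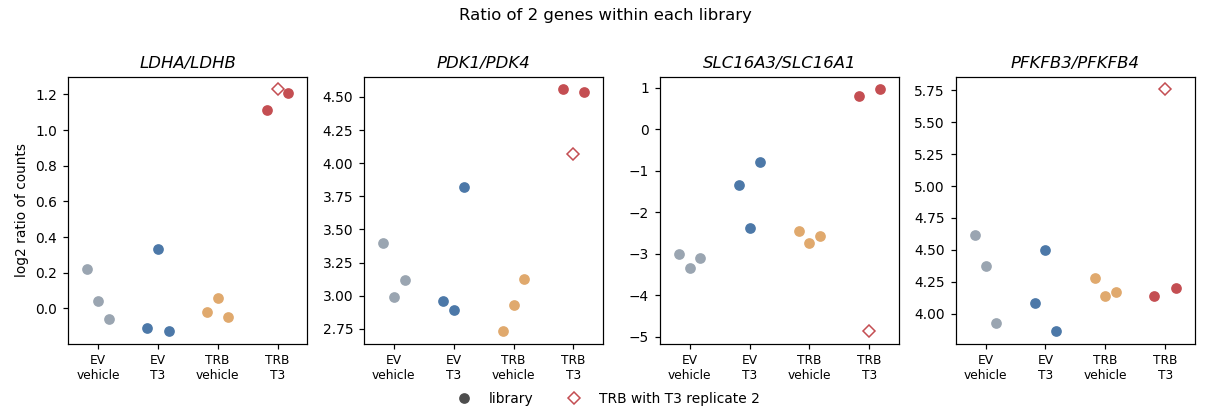
Each panel shows the log2 ratio of the counts of 2 genes within each library, by group; the open diamond is TRB with T3 replicate 2. The LDHA to LDHB ratio is 1.11 to 1.23 in all 3 libraries of TRB with T3, while the SLC16A3 to SLC16A1 ratio is 0.81 and 0.97 in 2 of them and -4.87 in replicate 2.

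Of the pyruvate dehydrogenase kinases, PDK1 rose in both fits and PDK4 fell in the fit of 11 libraries. PDK1, known as a hypoxia-induced kinase, went from 44.62, 51.35 and 47.17 CPM to 65.52, 127.0 and 66.83 CPM, without overlap. The rise was 0.86 with 12 libraries (SE 0.2571, adjusted p 0.0482) and 0.52 with 11 (SE 0.1372, adjusted p 0.011). With 12 libraries it was lost without TRB with vehicle replicate 1, 2 or 3 (adjusted p 0.131, 0.0919 and 0.118), EV with vehicle replicate 1, 2 or 3 (0.0575, 0.0593 and 0.0602) or EV with T3 replicate 1 (0.0578).

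PDK4, known as the form induced by fasting and fatty acids, held only 8 to 81 counts per library. It stood at 5.372 to 6.721 CPM with vehicle and 2.777, 7.555 and 2.873 CPM with T3, and fell by 1.10 with 11 libraries (SE 0.2823, adjusted p 0.0094) but not with 12 (-0.56, adjusted p 0.371). The log2 ratio of PDK1 to PDK4 counts was 4.56, 4.07 and 4.54 in TRB with T3 and 2.73 to 3.82 in the other 9 libraries. PDK2 and PDK3 passed in neither fit, nor did PDHA1 and PDHB, the E1 subunits that the kinases act on. PDHA1 stood at 411.3 to 415.6 CPM with vehicle and at 394.1, 500.3 and 409.7 CPM with T3.

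The lactate transporters went opposite ways in the fit of 11 libraries. SLC16A3 (chr17:82228397-82261129, plus strand) encodes MCT4, the exporter of strongly glycolytic cells. It held 28.26, 27.31 and 28.62 CPM with vehicle and 188.9, 8.995 and 219.0 CPM with T3. Replicates 1 and 3 were far above the vehicle libraries and replicate 2 below them. SLC16A3 rose by 2.91 with 11 libraries (SE 0.2455, adjusted p 1.7e-06), a 7.507-fold rise, and its change of 2.31 did not pass with 12 (SE 0.7917, adjusted p 0.0774). With GC offsets on all 12 libraries it passed (2.73, adjusted p 5.08e-07).

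SLC16A1 encodes MCT1, which carries lactate in either direction. It went from 153.1, 181.8 and 171.7 CPM to 107.4, 262.5 and 112.0 CPM, falling by 0.57 with 11 libraries (SE 0.1375, adjusted p 0.00613) and not with 12 (-0.07, adjusted p 0.884). The log2 ratio of SLC16A3 to SLC16A1 was -2.73 to -2.44 in TRB with vehicle and 0.81 and 0.97 in replicates 1 and 3 of TRB with T3, but -4.87 in replicate 2. TXNIP fell with 11 libraries (-0.33, SE 0.1167, adjusted p 0.0456) and not with 12 (-0.21, adjusted p 0.419). Its level was 133.0 to 153.4 CPM with vehicle and 106.2, 151.6 and 114.7 CPM with T3.

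The number of members called for T3 in TRB cells depended on the libraries. From the 12 libraries it was 4 without any 1 of the TRB with vehicle replicates, where 8.48% to 8.76% of all genes were called. It was 6 or 7 without any other single library except TRB with T3 replicate 2, where 12% to 16.1% were. With the 6 compared libraries alone it was 1, PFKFB3 (adjusted p 0.0402), where 4.52% were. Without replicate 2 and 1 further library it was 12 (without replicate 3 of TRB with T3) to 25, where 19.4% to 43.2% of all genes were called, and PFKFB2, PFKFB3, PFKFB4, ALDOC, PGK1, PGAM1, PKM, LDHA, LDHB, SLC16A3 and SLC2A1 were called in all 11 such fits.

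The second comparison gave the response of EV cells, which carry their own receptors only. With 12 libraries 0 of 30 members passed in edgeR, 1 had an unadjusted p under 0.05, and DESeq2 also called 0. Of all genes 0.208% rose and 0.0208% fell. With 11 libraries PFKFB3 and SLC16A3 rose and SLC2A1, PDK1, SLC16A1 and TXNIP fell, where 3.76% and 3.57% of all genes did. TRB with T3 replicate 2 belongs to neither group compared, but it enters the gene filter, the scaling and the shared estimate of the spread.

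**Figure D4:**
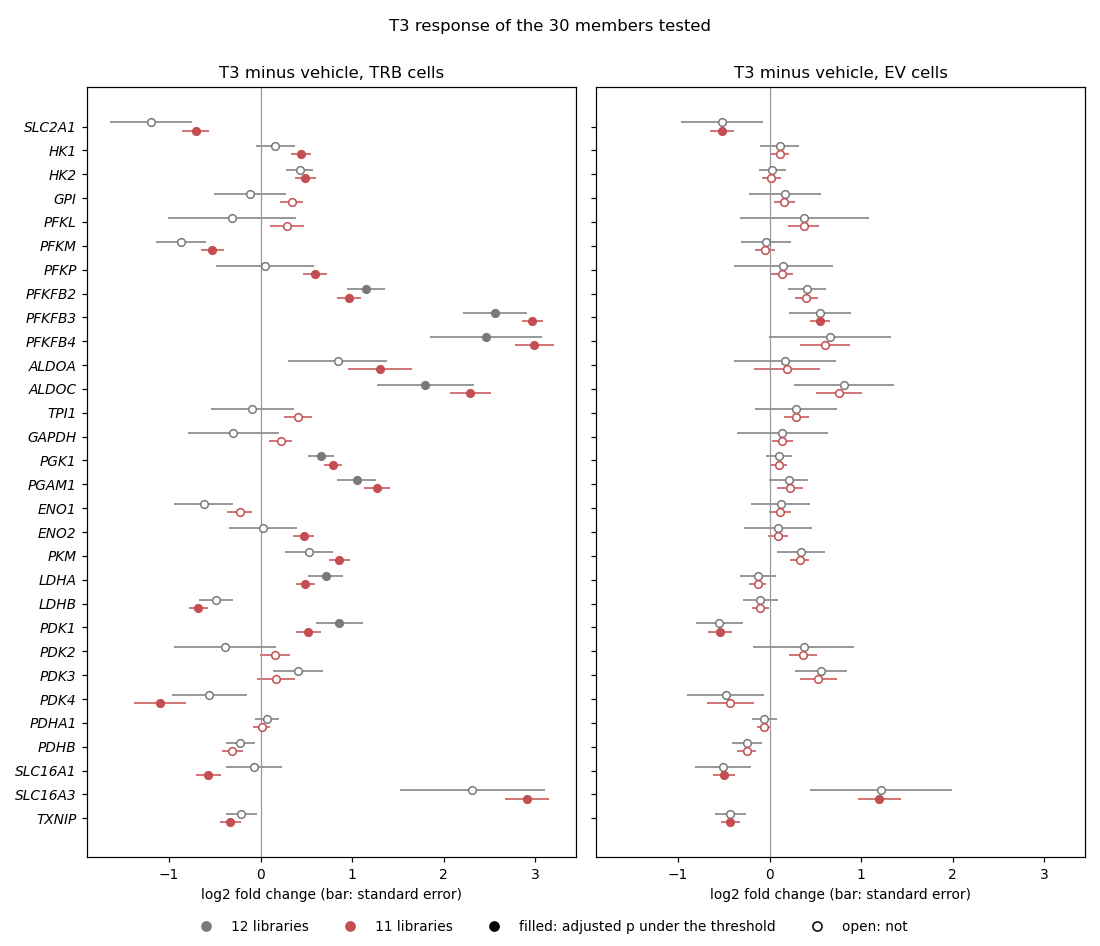
Log2 fold change of T3 against vehicle on the x axis for the 30 members tested, in TRB cells (left) and EV cells (right), with bars of 1 standard error. Grey points are the fit of 12 libraries and red points that of 11, and filled points passed the threshold. PFKFB3, PFKFB4, ALDOC and SLC16A3 have the largest changes in TRB cells, and SLC16A3 also has the largest in EV cells.

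In EV cells PFKFB3 went from 42.79, 37.27 and 40.53 CPM to 60.19, 50.19 and 66.06 CPM, a change of 0.55 that passed with 11 libraries (SE 0.1121, adjusted p 0.0145). SLC16A3 went from 22.8, 21.41 and 25.64 CPM to 62.35, 30.11 and 71.12 CPM, a change of 1.20 (SE 0.2361, adjusted p 0.0116). All T3 libraries of both genes lay above all EV vehicle libraries. SLC2A1 fell by 0.52 (SE 0.1271, adjusted p 0.0316), from 517.0 to 579.2 CPM to 393.7, 307.7 and 460.6 CPM. PDK1 fell by 0.54 (SE 0.1298, adjusted p 0.031), from 50.39, 52.71 and 51.83 CPM to 35.96, 40.79 and 28.6 CPM, while it rose in TRB cells. SLC16A1 fell by 0.50 (adjusted p 0.0318) and TXNIP by 0.43 (adjusted p 0.032).

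The 6 EV calls with 11 libraries depended on single libraries. Leaving out 1 further library gave 0 to 17 members called. Among EV libraries it gave 0 without replicate 1 of those with T3, 0 without replicate 2 and 1 without replicate 3 of those with vehicle, and 17 without replicate 2 of those with T3, where 40.3% of all genes were called. Among TRB libraries it gave 3 without replicate 1 and 3 without replicate 3 of those with T3, and 2 without replicate 3 of those with vehicle. The difference between EV libraries with T3 and vehicle also followed GC content across genes (Spearman 0.65 over 12130 genes, as a description), and with GC offsets on 12 libraries PFKFB2 and SLC16A3 rose and SLC2A1 fell, where 4.68% of all genes were called. PDK1 (-0.26, adjusted p 0.133), PFKFB3 (0.33, adjusted p 0.218), SLC16A1 (-0.37, adjusted p 0.194) and TXNIP (-0.30, adjusted p 0.108) did not pass there. The EV libraries with T3 also had the highest shares of reads that were not unique, 77.71%, 69.6% and 91.95%, against at most 66.88% in any other library, and the part of this in the calls was not tested.

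Without added hormone, TRB and EV cells differed in 0 of 30 members in edgeR with 12 libraries and with 11, and DESeq2 called 0. With the 6 compared libraries alone 2 members were higher in TRB cells, where 11.2% of all genes were called, and 1 was without replicate 2 of both T3 groups, where 4.86% were. None had an unadjusted p under 0.05 with 12 libraries and 4 did with 11. Of all genes 0.00693% were higher and 0.0139% lower in TRB cells with 12 libraries, and 0.027% and 0.0472% with 11. The members' median log2 difference was 0.06 with 12 libraries and 0.08 with 11. PFKFB3, as an example, was at 40.71 to 44.2 CPM in TRB and 37.27 to 42.79 CPM in EV cells (0.07, SE 0.3352). The largest difference with 11 libraries was that of PFKL (0.42, SE 0.1677, adjusted p 0.381). Across genes the difference between these groups followed GC content (Spearman 0.70 over 12130 genes, as a description), and PFKL transcripts had 64.0% GC. A p that misses the threshold does not show that the vectors were alike.

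With T3 present, TRB cells had more of several of these transcripts than EV cells. PFKFB3, PGK1, LDHA and PDK1 were higher with 12 libraries and 0 were lower, where 4.13% of all genes were higher and 2.55% lower. With 11 libraries 14 were higher and LDHB was lower, where 11.8% and 7.9% of all genes were. PFKFB3 differed by 2.09 (SE 0.3468, adjusted p 0.00526) with 12 libraries and by 2.52 (adjusted p 4.26e-08) with 11. PDK1 differed by 1.29 (SE 0.2607, adjusted p 0.0146) and by 0.95 (adjusted p 0.000417), with 65.52 to 127.0 CPM in TRB and 28.6 to 40.79 CPM in EV cells. PGK1 differed by 0.54 (adjusted p 0.0459) and LDHA by 0.76 (adjusted p 0.0445) with 12 libraries, and by 0.68 (adjusted p 0.000251) and 0.55 (adjusted p 0.00264) with 11.

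Among the calls with T3 only PFKFB3 held without each single library. PDK1 was lost without EV with T3 replicate 1 or 3 (adjusted p 0.0555 and 0.059). PGK1 held only without TRB with T3 replicate 2 (adjusted p 0.0724 to 0.161 without each other library). LDHA was lost without any 1 of the EV libraries or the TRB with vehicle libraries (adjusted p 0.0558 to 0.139). With the 6 compared libraries alone 0 members were called. With GC offsets on 12 libraries 13 were higher and 5 lower, where 30.5% of all genes were called. Across 12130 genes the difference followed GC content (Spearman -0.72 with all libraries and -0.15 without TRB with T3 replicate 2, as a description). This comparison shares its 3 TRB libraries with T3 with the first one.

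The interaction asked whether T3 acted differently with the receptor supplied. With 12 libraries 0 of 30 members passed in edgeR, 6 had an unadjusted p under 0.05, and DESeq2 called 3. Of all genes 1.77% had a more positive and 0.825% a more negative change in TRB cells. With 11 libraries 9 members had a more positive change and 1 a more negative one, where 8.55% and 6.68% of all genes did. The 9 were PFKFB3 (2.43, SE 0.1624, adjusted p 1.98e-06), PFKFB4 (2.38, adjusted p 0.000829), ALDOC, PGK1, PGAM1, PKM, LDHA, PDK1 and SLC16A3, and the 1 was LDHB (-0.58, SE 0.1412, adjusted p 0.0156).

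The difference of response took several forms. For PFKFB3 and SLC16A3 both vectors showed a rise with 11 libraries, and that in TRB cells was larger (2.97 against 0.55, and 2.91 against 1.20). For PDK1 the changes had opposite signs, 0.52 in TRB and -0.54 in EV cells, and the difference was 1.06 (SE 0.1888, adjusted p 0.00292). LDHA rose by 0.49 in TRB cells and changed by -0.13 in EV cells (adjusted p 0.396 there). SLC2A1 and SLC16A1 fell in both vectors, and their interactions did not pass (-0.18 and -0.08, adjusted p 0.549 and 0.809). Without replicate 2 and 1 further library 7 to 13 members were called. The PKM call held in 2 of these 11 fits, that of LDHA in 10, that of LDHB in 9, and the other 7 in all 11. With GC offsets on 12 libraries 11 members were more positive and 3 more negative, where 21.0% of all genes were called.

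Genes of neighbouring pathways were taken from textbook lists and counted the same way for T3 in TRB cells, against 8.54% of all genes that rose and 6.2% that fell with 12 libraries, and 18.1% and 15.2% with 11. In lists of this size counts of 1 to 3 lie near those shares. Changes of named genes are for 12 libraries, with those for 11 after them. Of 15 other glycolysis and glucose transport genes tested, 2 rose and 2 fell with 12 libraries (6 and 3 with 11). SLC2A12, which encodes the transporter GLUT12, rose by 3.18 (SE 0.2421, adjusted p 1.81e-05) from 6.606 to 7.218 CPM to 55.46, 81.85 and 50.84 CPM, and by 2.99 with 11. HKDC1, a further hexokinase, fell by 1.84 (SE 0.281, adjusted p 0.00146) from 73.36 to 81.51 CPM to 25.67, 11.33 and 26.98 CPM, and by 1.49 with 11. In the same cells GLUT12 transcript thus rose while that of GLUT1 was lower in all 3 libraries.

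Of 16 other pyruvate and lactate genes 2 rose and 1 fell (3 and 2 with 11 libraries). GPT2, which converts pyruvate and alanine, fell by 1.61 (SE 0.2559, adjusted p 0.00184) and by 1.31 with 11. ME1, malic enzyme, rose by 1.31 (adjusted p 0.0157) and by 0.86 with 11. PDP2, a phosphatase that reopens the pyruvate dehydrogenase gate, rose by 0.62 (SE 0.1579, adjusted p 0.0233) and by 0.60 with 11. PDK1 and PDP2, which act on the complex in opposite ways, therefore both rose. Of 10 pentose phosphate genes 0 rose and RPIA fell (-1.31, SE 0.1583, adjusted p 0.000318, and -1.24 with 11).

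Of 20 gluconeogenesis and glycogen genes 3 rose and 3 fell (7 and 4 with 11 libraries). GBE1, the glycogen branching enzyme, rose by 2.66 (SE 0.1845, adjusted p 9.98e-06, and 2.58 with 11), and PHKA1, a subunit of phosphorylase kinase, by 2.34 (SE 0.159, adjusted p 8.97e-06, and 2.28 with 11). PCK2, mitochondrial phosphoenolpyruvate carboxykinase, fell by 2.37 (SE 0.5222, adjusted p 0.0114) and by 1.85 with 11. Of 11 TXNIP relatives and glucose-sensing genes 0 passed with 12 libraries, where 3 had an unadjusted p under 0.05. With 11 libraries 2 rose and 3 fell, among them ARRDC3 (0.69, adjusted p 0.0313) and ARRDC4 (-0.77, adjusted p 0.0208), arrestin-fold relatives of TXNIP, and TXN (-0.60, adjusted p 0.000347), the thioredoxin that TXNIP binds.

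Of 21 hypoxia response genes outside glycolysis 11 rose and 2 fell with 12 libraries, with a median log2 change of 1.00 (13 and 3 with 11 libraries, median 0.95). HIF1A, the oxygen-regulated subunit, rose by 2.32 (SE 0.3364, adjusted p 0.000998), carbonic anhydrase CA12 by 2.77 (SE 0.1369, adjusted p 1.05e-06) and adrenomedullin ADM by 2.47 (SE 0.2535, adjusted p 0.000117). With 11 libraries these were 1.81, 2.88 and 2.72. VEGFA and DDIT4, also known hypoxia targets, fell, by 1.26 and 1.86 (SE 0.1638 and 0.3364), and by 1.05 and 1.48 with 11. In EV cells 0 of the 21 passed with 12 libraries, where 4 had an unadjusted p under 0.05. With 11 libraries CA12 rose and VEGFA, MXI1 and DDIT4 fell in EV cells, where 3.76% of all genes rose and 3.57% fell. The interaction passed for 5 genes of this list with 12 libraries and 12 with 11, each more positive in TRB cells. Of all genes 1.77% were more positive by the interaction with 12 libraries and 8.55% with 11. RNA levels alone were measured, and neither oxygen nor protein.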

How the data were processed

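Raw counts per symbol, 1 file a library, are what the authors deposited. Their table of normalized counts, with 2 columns for TRB with T3, was not used here. Per the submitters' processing notes, CASAVA 1.7, STAR 2.7, HTSeq 0.10, DESeq2 and hg38 were used. Annotation and strand setting are not given in the sources used here. Lines for reads of no gene were left out: 19.03% to 91.95% of a file was not unique, 2.144% to 24.37% outside genes and 0.2583% to 1.812% ambiguous.

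The fit used edgeR 4.0.16 (R 4.3.3) with filterByExpr (minimum count 10, total 15), TMM scaling and a quasi-likelihood model of 4 groups, two-sided, Benjamini-Hochberg adjusted. CPM uses the TMM library sizes of 12 libraries. Standard errors come from the log2 fold change and its F statistic. Exon lengths, GC content and coordinates are from GENCODE release 29 by symbol, and promoters from RefSeq. GC offsets remove a spline (5 degrees of freedom) from each library, over 12130 tested genes with a value. The test was checked on simulated counts with the same spread for all genes and libraries, no GC trend and no library set apart. That check does not cover the unequal spread and the GC trends of these libraries.

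Alternatives were DESeq2 1.42.0 as test or scaling, no count filter, the compared groups alone, a replicate block, GC offsets and leaving out each library. Leaving out 2 libraries was chosen after seeing the data. Named from each other list were up to 3 called genes with the largest change and a mean log2 CPM of at least 3; VEGFA, DDIT4 and MXI1 were chosen after their values were seen. Members and lists were chosen with earlier results of these data known.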

Additional observations from a re-analysis of the deposited data

Results flagged for a closer look

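The T3 response of 10 members differed between TRB and EV cells by the interaction term of edgeR's quasi-likelihood test in the fit of 11 libraries, and of 0 in the fit of 12, where 6 had an unadjusted p under 0.05. Of all genes 15.2% were called with 11 libraries, 8.55% more positive and 6.68% more negative in TRB cells, and 2.59% with 12. Higher values mean a more positive change in TRB cells, on the log2 scale. The regulatory enzymes PFKFB3 (2.43) and PFKFB4 (2.38) and the lactate exporter SLC16A3 (1.71) had the largest differences. ALDOC differed by 1.53, PGAM1 by 1.06, PGK1 by 0.69 and PKM by 0.53. At the pyruvate gate PDK1 differed by 1.06 and LDHA by 0.61, while LDHB differed by -0.58.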

How the results depend on the processing

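In parentheses is the share of all genes called in the same fit. For T3 in TRB cells 8 members were called with 12 libraries (14.7%). The number was 1 with the compared groups alone (4.52%), 21 with GC offsets (44.6%), 26 with GC offsets and TRB with T3 replicate 2 left out (57%), and 4 to 25 when 1 library, or that replicate and 1 other, was left out (8.48% to 43.2%). For T3 in EV cells it was 0 (0.229%), against 3 (4.68%) and 9 (18.6%) with the same GC settings and 0 to 17 with libraries left out (0.0674% to 40.3%). For TRB against EV in vehicle it was 0 (0.0208%), against 2 with the compared groups alone (11.2%) and 0 to 1 with libraries left out (0.00674% to 4.86%). For TRB against EV with T3 it was 4 (6.68%), against 8 with the DESeq2 test (13.2%), 2 without a count filter (2.19%), 0 with the compared groups alone (0.241%), 18 (30.5%) and 24 (42.8%) with the GC settings, and 1 to 21 with libraries left out (2.79% to 31.2%). For the difference of response it was 0 (2.59%), against 3 with the DESeq2 test (7.08%), 1 without a count filter (0.783%), 14 (21.0%) and 20 (35.5%) with the GC settings, and 0 to 13 with libraries left out (0.918% to 36.6%). The cause was not tested.

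Some log2 changes took either sign when libraries were left out. For T3 in TRB cells PFKP ran from -0.31 to 0.67, ENO2 from -0.23 to 0.53 and SLC16A1 from -0.65 to 0.14. For TRB against EV with T3 HK1 ran from -0.08 to 0.40, PFKP from -0.36 to 0.69 and ENO2 from -0.19 to 0.60. For the difference of response PKM ran from -0.03 to 0.62. The cause was not tested.

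Groups share replicate numbers, but the labels tie no number to a batch or day. In each comparison of 2 groups at least 1 of the 3 same-numbered pairs had deviations that correlated at 0.06 or less (down to -0.15), and the main fits took the numbers as names only. For EV with T3 and TRB with T3 the pairs of replicates 2 and 3 correlated at 0.73 and 0.64. A batch shared by number was not tested beyond the replicate block given below. All 3 pairs were above 0.1 for EV vehicle with TRB T3 (0.28, 0.50 and 0.16), which are not compared, and all 6 pairs of replicates 2 were positive (0.12 to 0.73). With a replicate block 9 members were called for T3 in TRB cells, where 15.8% of all genes were, and 0 for T3 in EV cells (0.125%). For TRB against EV it was 0 in vehicle (0.0139%) and 3 with T3 (7.4%), and for the difference of response 0 (2.74%). With this block the PFKP response to T3 in TRB cells was -0.16 and that of ENO2 -0.08, and their differences between vectors under T3 were -0.15 and -0.01. Depth limits SLC2A3, with 0 to 6 counts, and PDK4, with 8 to 81.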
